A study of Homo sapiens with 22 samples.

Results

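The subject of these results is a set of 499 transcript clusters whose signal was high in the ovarian cancer line JHOC5 and clearly lower in the line JHOC9. A transcript cluster is the array's unit for one transcribed region, and 65526 were measured, so the set makes up 0.762% of them. The clusters were selected on the NT control arrays. A cluster was a member if its mean log2 signal on the 5 JHOC5 NT arrays was at least 6, if that mean exceeded the mean of the 5 JHOC9 NT arrays by at least 1.5, and if the lowest JHOC5 NT array lay above the highest JHOC9 NT array. Clusters whose IDs begin with TC0X or TC0Y were left out. The range condition removed no cluster that met the other conditions.

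JHOC5 and JHOC9 are established lines of ovarian clear cell carcinoma, and all 6 groups were made by infecting one of them with a lentivirus. In each line, 5 arrays came from cells given the NT control virus (Experiments A to E), 3 from cells given the knockdown virus SPINK1 KD #9 and 3 from cells given IL-6 KD#58. JHOC9 was grown in 20% FBS and JHOC5 in 10% FBS, so line and serum cannot be told apart. There was 1 virus per target and 1 line per arm, and no label names separate cultures for the replicates, so the p-values reflect variation among arrays that may be partly technical. The files pair no cluster with a gene name, and gene names, coordinates, sequences, cell type markers and the degree of knockdown were not analysed here. Clusters are given by their IDs.

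Clear cell carcinoma of the ovary is a histological type often linked to endometriosis. IL-6 is a secreted cytokine that acts through its receptor and the shared subunit gp130 to activate the JAK kinases and the transcription factor STAT3. SPINK1 encodes a secreted inhibitor of trypsin. Lines of the same tumour type commonly differ in many transcripts, through lineage state, chromosome copy number and silencing of single loci. RNA was measured in bulk, so fewer cells with a transcript and less of it per cell cannot be told apart.

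The levels that chose the clusters covered a wide range. The group mean over the 499 clusters had a median of 7.73 on the JHOC5 NT arrays and 5.45 on the JHOC9 NT arrays, both in log2 signal. The difference, JHOC5 minus JHOC9, ran from 1.5 to 6.51 with a median of 2.07, a 4.20-fold median that reached 91.0-fold. Its quartiles were 1.74 and 2.73, and 276 clusters differed by at least 2, 97 by at least 3, 35 by at least 4 and 14 by at least 5. These values are a description, since the same arrays decided membership.

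**Figure D1:**
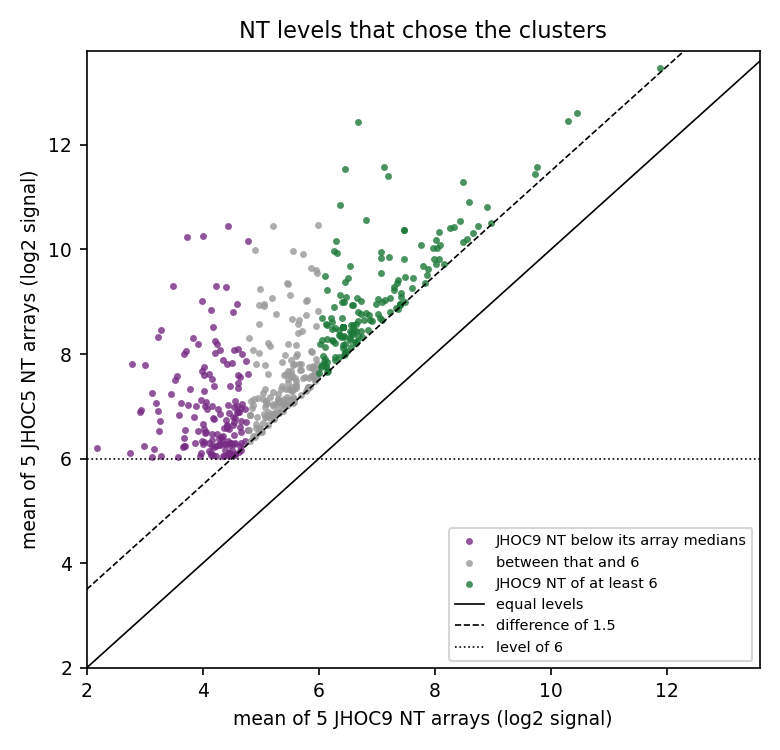
Mean log2 signal of each of the 499 clusters on the 5 JHOC9 NT arrays (horizontal axis) and the 5 JHOC5 NT arrays (vertical axis), with the thresholds of the selection drawn as dashed and dotted lines. Colours mark the JHOC9 level: 163 clusters lay below the lowest JHOC9 NT array median, 169 between it and 6, and 167 at 6 or above.

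"High in JHOC5" did not mean dim in JHOC9 for most of the set. The lowest median over all clusters on a JHOC9 NT array was 4.80 log2, and 163 of the 499 clusters (32.7%) had a JHOC9 NT mean below it. Another 169 lay between that level and 6. The other 167 had a JHOC9 NT mean of at least 6, the level that membership asks of JHOC5. The median NT difference was 2.56 in the dimmest class, 1.87 in the middle class and 1.97 in the brightest, as the plot of NT levels shows.

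The largest NT difference was in TC12001572.hg.1. Its 5 JHOC5 NT arrays gave log2 signals of 10.19, 10.29, 10.27, 10.20 and 10.22, and its 5 JHOC9 NT arrays gave 3.63, 3.57, 3.78, 3.91 and 3.73. With the SPINK1 virus the JHOC5 arrays gave 10.08, 10.05 and 10.08 and the JHOC9 arrays 3.83, 3.79 and 3.86; with the IL-6 virus they gave 10.10, 10.32 and 10.08 in JHOC5 and 4.02, 3.72 and 4.01 in JHOC9. All 11 JHOC5 arrays of this cluster lay at 10.05 or above and all 11 JHOC9 arrays at 4.02 or below, under the median of their arrays. The second was TC18000230.hg.1, with an NT mean of 10.26 ± 0.19 (SD, n = 5) in JHOC5 and 4.01 ± 0.07 (SD, n = 5) in JHOC9. It varied more between JHOC5 arrays, from 9.80 with the SPINK1 virus to 10.92 with the IL-6 virus.

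At the thresholds, the NT differences of members and non-members lay side by side. Just inside the difference threshold were TC02002244.hg.1, which differed by 1.5, and TC22000935.hg.1, by 1.502. Just outside were TC13001319.hg.1, by 1.498, and TC03000481.hg.1, by 1.497. Just inside the level threshold were TC08000528.hg.1, with a JHOC5 NT mean of 6.02, and TC04002009.hg.1, with 6.03. Just outside it were TC01004041.hg.1, with a mean just under 6, and TC01000887.hg.1, with 5.99.

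Members varied somewhat more between replicate arrays in JHOC5 than in JHOC9. The median SD of a member within a group was 0.175 for JHOC5 NT, 0.189 with the SPINK1 virus and 0.217 with the IL-6 virus. In JHOC9 it was 0.159, 0.149 and 0.147 in the same order. Over all clusters the median SD lay between 0.0907 and 0.117 in the 6 groups, below the value for the members in each group. The median of the 499 clusters on single arrays ran from 7.66 to 7.83 in JHOC5 NT and from 5.34 to 5.47 in JHOC9 NT.

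**Figure D2:**
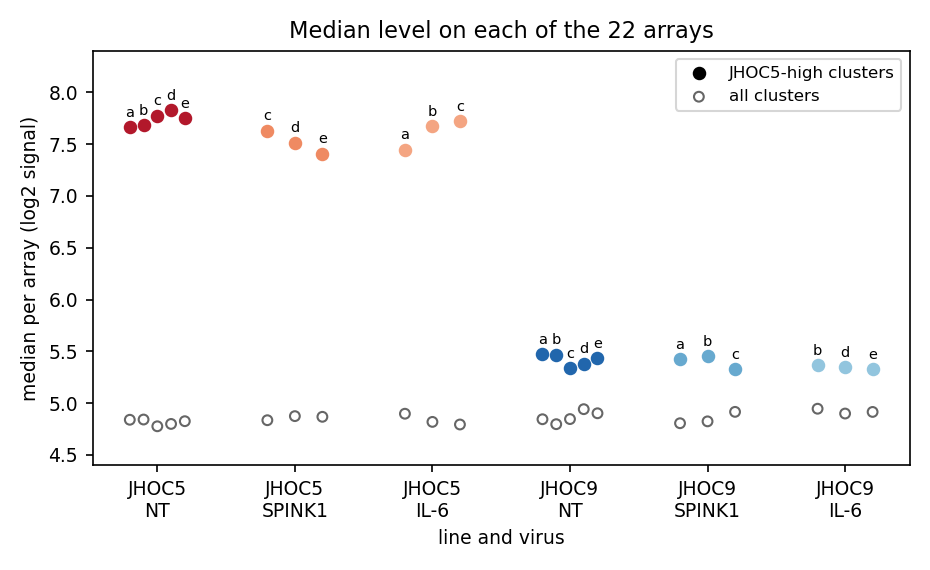
Median log2 signal of the 499 JHOC5-high clusters (filled points, lettered by replicate) and of all clusters (open points) on each of the 22 arrays, by line and virus. The members sit between 7.41 and 7.83 in JHOC5 and between 5.33 and 5.47 in JHOC9, while the medians of all clusters stay between 4.78 and 4.95.

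On the arrays with a knockdown virus, none of which was used to choose the clusters, the lines differed in the same direction for the whole set. With the SPINK1 virus 492 of the 499 clusters were higher in JHOC5 than in JHOC9 (limma adjusted p under 0.05), where 10.7% of all 65526 clusters were. With the IL-6 virus 498 were higher, where 11.1% of all clusters were. No member was called lower in either comparison, and the fitted difference was above 0 for all 499 with both viruses. The lowest of the 6 JHOC5 virus arrays lay above the highest of the 6 JHOC9 virus arrays in 491 members, against 7.85% of all clusters. The median difference was 2.00 with the SPINK1 virus and 1.98 with the IL-6 virus on the log2 scale, against medians of 0.00 and -0.08 over all clusters.

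The size of the difference was close to that on the NT arrays for most clusters. Divided by the NT difference of the same cluster, the difference on the SPINK1 arrays had a median of 0.956, with quartiles of 0.822 and 1.06. For the IL-6 arrays the median was 0.958, with quartiles of 0.877 and 1.03. Members were chosen for large NT differences, which makes a ratio a little under 1 likely on any other arrays. The ratio was under 0.5 in 20 members with the SPINK1 virus and in 2 with the IL-6 virus.

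**Figure D3:**
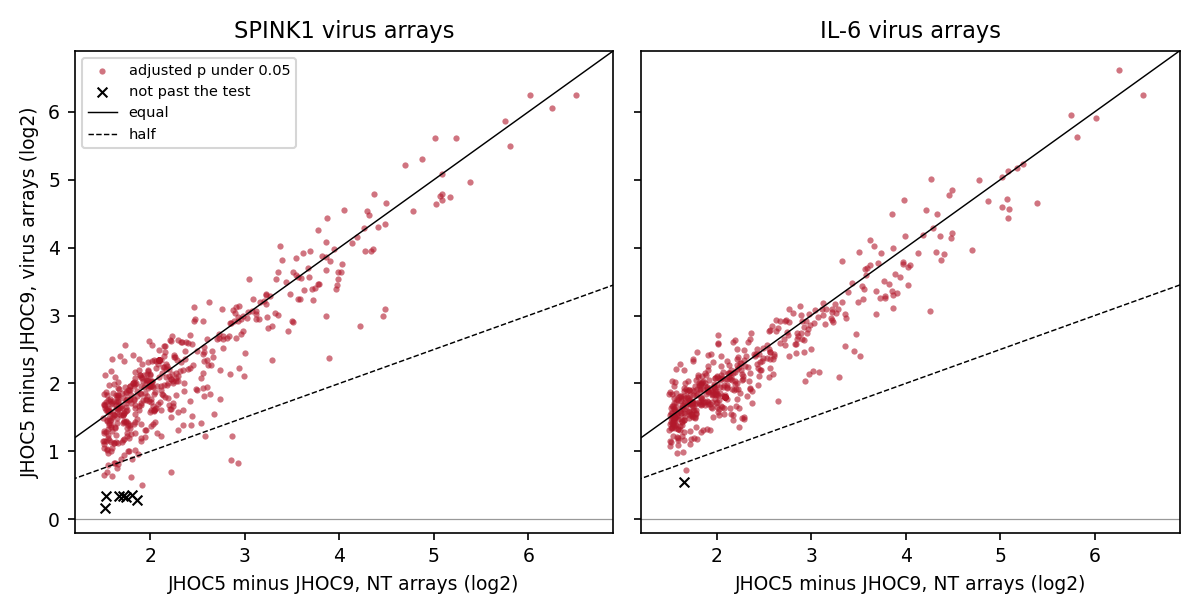
JHOC5 minus JHOC9 difference of each member in log2 units, on the NT arrays (horizontal axis) and on the SPINK1 or IL-6 virus arrays (vertical axis). Points follow the line of equal difference; crosses mark the 7 members with the SPINK1 virus and the 1 with the IL-6 virus that did not pass the limma test.

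The 7 members that were not called between the lines on the SPINK1 arrays had small differences there, which follows from how they were picked. Their line differences were 0.17 to 0.36 there, with limma adjusted p from 0.0637 to 0.481, against 1.52 to 1.85 on the NT arrays. All 7 were higher in JHOC5 on the IL-6 arrays, by 1.85 to 2.32. In JHOC5 itself their change from NT to the SPINK1 virus was between -1.93 and -1.59, and from NT to the IL-6 virus between -0.15 and 0.18. These members, bright in JHOC5 with NT means of 7.34 to 8.42, came down to near the JHOC9 level with the SPINK1 virus.

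The smallest difference of these was in TC01001430.hg.1. Its JHOC5 arrays gave 7.97, 7.55, 7.71, 7.71 and 7.49 with NT, 6.45, 6.09 and 5.68 with the SPINK1 virus and 7.66, 7.63 and 7.75 with the IL-6 virus. Its JHOC9 arrays gave 5.81, 5.97 and 5.92 with the SPINK1 virus. The JHOC5 SPINK1 arrays lay below every JHOC5 NT and IL-6 array and overlapped the JHOC9 arrays, with a difference between lines of 0.17 ± 0.14 (SE, 3 against 3 arrays; limma adjusted p = 0.481). TC01002766.hg.1 came next, with 6.86, 6.58 and 6.03 on the JHOC5 SPINK1 arrays against 6.18, 6.17 and 6.27 in JHOC9 and a difference of 0.29 ± 0.15 (SE; limma adjusted p = 0.228). In both, replicate e was the lowest of the 3 JHOC5 SPINK1 arrays.

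With the IL-6 virus the smallest difference between lines was in TC04001570.hg.1, at 0.55 ± 0.23 (SE, 3 against 3 arrays; limma adjusted p = 0.0872). Its JHOC5 arrays gave 8.31, 8.65 and 8.23 with this virus and its JHOC9 arrays 7.53, 7.77 and 8.23. JHOC9 was uneven for this cluster, with NT arrays from 7.17 to 8.33. In JHOC5 it was lower than NT with both viruses, by -1.24 ± 0.21 with the SPINK1 virus (SE; limma adjusted p = 0.000366) and by -1.12 ± 0.21 with the IL-6 virus (adjusted p = 0.00513). The next smallest was TC04002082.hg.1, with 0.73 ± 0.16 (SE; limma adjusted p = 0.00137).

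Within JHOC5, the SPINK1 virus lowered more members than it raised. Against NT, 104 members (20.8%) fell, where 3.86% of all clusters did, and 24 (4.81%) rose, where 2.68% of all clusters did (limma adjusted p under 0.05). Bright clusters were called more often in general: among the 18650 clusters with a JHOC5 NT mean of at least 6, 10.4% fell and 6.08% rose. At least 2-fold falls were found in 35 members and no member rose as much. Over all 65526 clusters 269 fell and 19 rose as much, and 245 and 9 of the 18650 bright ones. The median change over the 499 was -0.11 log2, against 0.05 over all clusters. The NT arrays that chose these clusters for high JHOC5 signal are also the baseline here, which favours falls in JHOC5.

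Among the 24 members that rose with the SPINK1 virus, the median change was 0.49 log2 and 21 had all 3 SPINK1 arrays above all 5 NT arrays. Among the 104 that fell, the median change was -0.80 and 91 had no overlap. Lack of overlap describes clusters already called and is no separate support. Falls were found at every JHOC9 level: 28 of the 163 clusters in the dimmest JHOC9 class fell, 46 of the 169 in the middle class and 30 of the 167 in the brightest. Rises numbered 9, 12 and 3 in the same classes. Calls among all clusters at the same JHOC9 levels were not counted, so these class counts only describe the members. The members' median was uneven over the 3 SPINK1 arrays, at 7.63, 7.51 and 7.41 for replicates c, d and e.

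The largest fall with the SPINK1 virus was in TC01002412.hg.1. Its JHOC5 NT arrays gave log2 signals of 9.24, 9.52, 9.25, 8.97 and 9.94, and its SPINK1 arrays 6.92, 6.87 and 6.83. The 2 groups lay far apart. The change was -2.51 ± 0.15 (SE, 3 against 5 arrays; limma adjusted p = 1.65e-09), a 5.71-fold fall. The IL-6 arrays gave 8.94, 9.33 and 8.69, a change of -0.40 with an adjusted p of 0.356. In JHOC9 it gave 5.94, 6.08 and 6.10 with the SPINK1 virus, below the 5 NT arrays at 6.32 to 6.63, a change of -0.42 that did not pass (adjusted p = 0.765).

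TC03000846.hg.1 showed a fall toward the JHOC9 level without reaching it. It gave 6.38, 6.56, 6.48, 6.56 and 6.81 with NT in JHOC5 and 4.65, 4.49 and 4.58 with the SPINK1 virus, a change of -1.99 ± 0.09 (SE; limma adjusted p = 1.57e-11). The JHOC5 IL-6 arrays gave 6.2, 6.63 and 6.52, a change of -0.11 with an adjusted p of 0.797. All 11 JHOC9 arrays lay between 3.63 and 3.77 whatever the virus. The JHOC5 SPINK1 arrays lay between those and the other JHOC5 arrays.

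The largest rises with the SPINK1 virus were near 1.8-fold. TC04000274.hg.1 gave 7.96, 8.03, 8.16, 8.09 and 7.82 with NT and 8.89, 8.99 and 8.73 with the SPINK1 virus, a change of 0.86 ± 0.11 (SE, 3 against 5 arrays; limma adjusted p = 1.6e-05) or 1.82-fold. Its IL-6 arrays gave 7.67, 7.83 and 8.05. TC12001309.hg.1 gave 7.07, 7.48, 7.01, 7.01 and 7.11 with NT and 7.71, 8.08 and 8.21 with the SPINK1 virus, a change of 0.86 ± 0.13 (SE; limma adjusted p = 0.000108). In both, no SPINK1 array overlapped an NT array.

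The IL-6 virus changed fewer members in JHOC5, and these too were mostly lower. Against NT, 38 members fell, where 0.954% of all clusters did, and 4 rose, where 0.435% did (limma adjusted p under 0.05). Among clusters with a JHOC5 NT mean of at least 6 the shares were 2.68% and 1.09%. Of the 38 that fell, 33 had all IL-6 arrays below all NT arrays, and the median change was -0.69 log2. As with the SPINK1 virus, this lack of overlap describes clusters already called and is no separate support. At least 2-fold falls were found in 7 members, in 25 of all 65526 clusters and in 23 of the 18650 bright ones. The median over all 499 was -0.13, against 0.02 over all clusters, and 371 of the 499 had a negative change. So did 26592 of all 65526 clusters and 8952 of the 18650 bright ones. Selection for high JHOC5 NT signal favours this sign among the members. These calls share the selected NT arrays as baseline and depended on single arrays: 17 members were called without IL-6 replicate a, which had the lowest median of the set in this group (7.44 against 7.67 and 7.72), and 27 without NT replicate d.

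TC18000741.hg.1 fell with the IL-6 virus and not with the SPINK1 virus. Its JHOC5 NT arrays gave 9.25, 9.40, 8.95, 9.52 and 9.54, its IL-6 arrays 8.28, 8.11 and 8.01 and its SPINK1 arrays 9.52, 9.37 and 9.59. The change from NT to the IL-6 virus was -1.20 ± 0.13 (SE, 3 against 5 arrays; limma adjusted p = 2.23e-05), and the 2 groups did not overlap. TC09000323.hg.1 had the largest fall, -1.36 ± 0.27 (SE; limma adjusted p = 0.00896), with IL-6 arrays at 7.72, 7.53 and 8.39. Its NT arrays ran from 8.46 to 9.65, and its call was lost in 3 of 16 alternative settings, with an adjusted p of up to 0.0735.

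Among the members that rose with the IL-6 virus and had no overlap with NT, the largest rises were in a pair under TC04, which also differed strongly between the lines on the NT arrays, by 4.27 and 3.98. TC04002588.hg.1 gave 8.38, 8.0, 8.43, 8.23 and 7.88 with NT in JHOC5 and 9.26, 8.83 and 9.45 with the IL-6 virus, a change of 0.99 ± 0.18 (SE; limma adjusted p = 0.00362). TC04001283.hg.1 gave 9.04, 8.74, 9.17, 9.01 and 8.76 with NT and 9.97, 9.58 and 10.11 with the IL-6 virus, a change of 0.94 ± 0.15 (SE; limma adjusted p = 0.00145). In both, replicate b was the lowest IL-6 array and still lay above every NT array. With the SPINK1 virus both had changes below 0 that did not pass, -0.31 with an adjusted p of 0.401 and -0.27 with 0.392.

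The viruses were compared with each other in JHOC5 on arrays that had no part in choosing the clusters. The SPINK1 arrays were replicates c, d and e and the IL-6 arrays a, b and c, so virus and replicate letter are partly confounded. With the SPINK1 virus 63 members (12.6%) were higher than with the IL-6 virus, where 2.75% of all clusters were, and 81 (16.2%) were lower, where 3.22% were (limma adjusted p under 0.05). Among all clusters with a JHOC5 NT mean of at least 6 the shares were 6.81% and 8.88%. With a block for the replicate letter, shared by both lines, 53 members were higher and 79 lower, and 3018 of all 65526 clusters were called. The median change over the 499 was 0.02, the same as over all clusters, so the members spread in both directions with no common shift. All 63 higher members and 79 of the 81 lower ones had groups that did not overlap, which describes calls already made and is no separate support. At least 2-fold differences were found in 16 members that were higher and 32 that were lower. Over all 65526 clusters 70 and 277 differed as much, and 52 and 245 of the 18650 bright ones.

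The largest differences between the viruses ran in both directions. TC12001324.hg.1 gave 8.63, 8.71 and 8.73 with the SPINK1 virus and 6.84, 7.52 and 7.17 with the IL-6 virus, a difference of 1.51 ± 0.24 (SE, 3 against 3 arrays; limma adjusted p = 0.00032). Its NT arrays, 7.62, 8.10, 8.02, 7.92 and 8.50, lay between the 2 virus groups, and neither change from NT passed (adjusted p = 0.0852 and 0.0575). TC09000323.hg.1 was next among the higher ones, at 1.48 ± 0.30 (SE; limma adjusted p = 0.00286). Of those lower with the SPINK1 virus, TC01002412.hg.1 led with -2.12 ± 0.17 (SE; limma adjusted p = 8.84e-08).

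TC11001395.hg.1 moved in opposite directions with the 2 viruses. Its JHOC5 arrays gave 6.83, 6.77, 6.97, 6.77 and 6.9 with NT, 5.42, 5.32 and 5.42 with the SPINK1 virus and 7.28, 7.48 and 7.67 with the IL-6 virus. No group overlapped another: the SPINK1 arrays lay lowest and the IL-6 arrays highest. Against NT the changes were -1.47 ± 0.09 with the SPINK1 virus (SE, 3 against 5 arrays; limma adjusted p = 1.11e-09) and 0.63 ± 0.09 with the IL-6 virus (adjusted p = 0.000332), and the viruses differed by -2.09 ± 0.10 (adjusted p = 4.84e-11). In JHOC9 it gave 4.60, 4.89 and 4.78 with the SPINK1 virus and 5.12, 5.09 and 4.83 with the IL-6 virus.

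**Figure D4:**
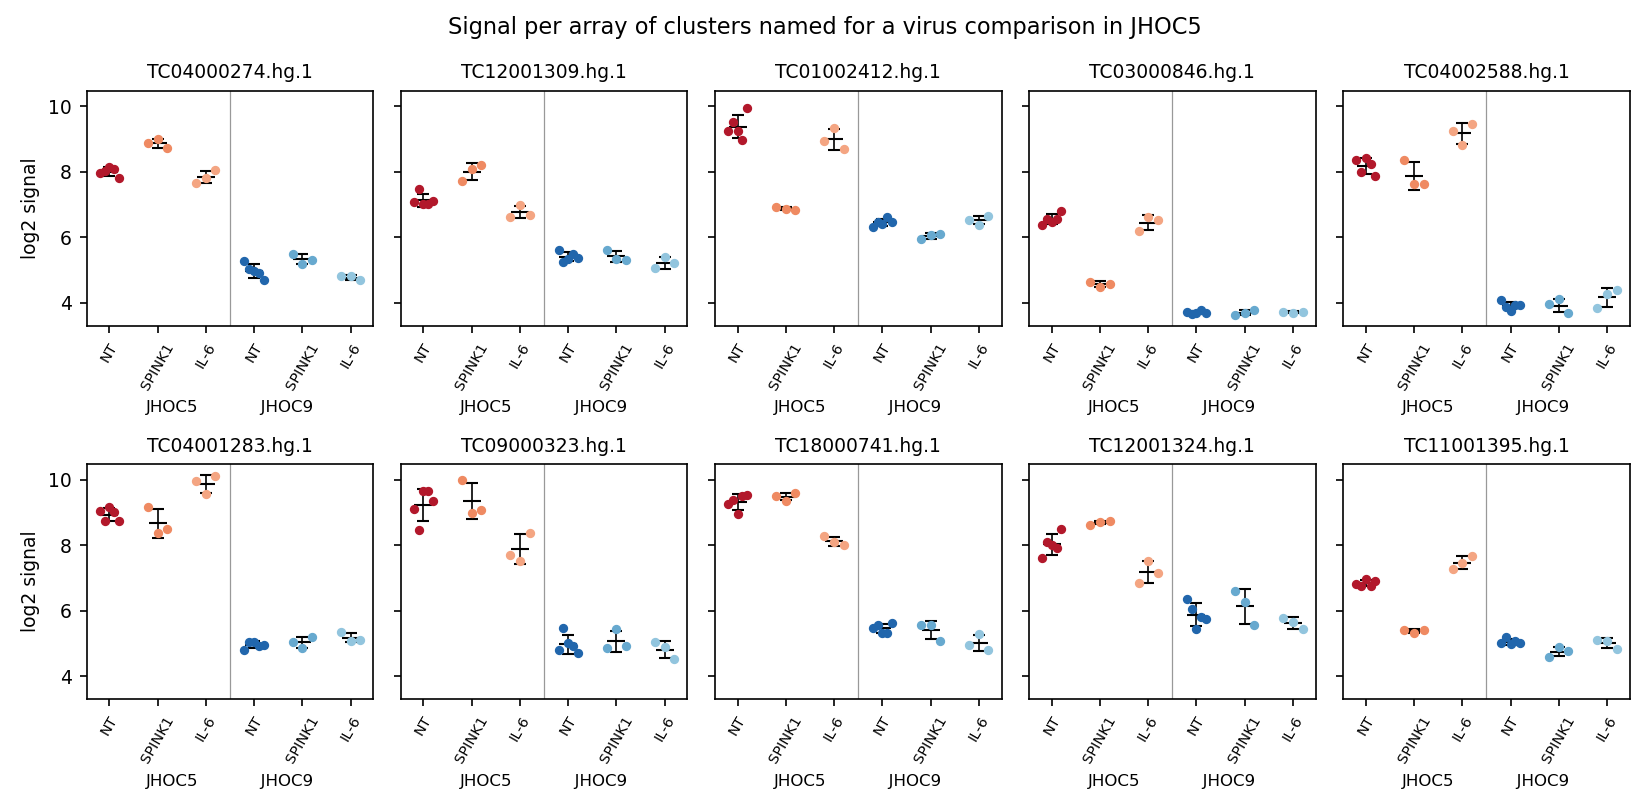
Log2 signal on each array of the 10 members named for a virus comparison in JHOC5, by line and virus; points are arrays, and bars are the mean ± SD of the group. TC01002412.hg.1, TC03000846.hg.1 and TC11001395.hg.1 fall with the SPINK1 virus in JHOC5, and TC18000741.hg.1 falls with the IL-6 virus.

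In JHOC9, where the set is lower, few members passed the test with either virus. With the SPINK1 virus 1 member fell, where 0.0702% of all clusters did, and 0 rose by limma, where 0.0137% did, while 38 of the 499 (7.62%) had an unadjusted p under 0.05, where 4.95% of all clusters did. With the IL-6 virus 5 fell, where 0.201% of all clusters did, and 0 rose, where 0.0412% did, with 59 (11.8%) at an unadjusted p under 0.05, where 10.8% of all clusters were. Among the clusters with a JHOC5 NT mean of at least 6, the unadjusted shares were 7.77% (SPINK1 virus) and 16.9% (IL-6 virus). Of these clusters, 0.220% and 0.579% were called lower. The members' unadjusted share was close to theirs with the SPINK1 virus and smaller with the IL-6 virus. These clusters were chosen on JHOC5 signal, whereas the members had a median JHOC9 NT mean of 5.45. The sets were therefore not matched for brightness in JHOC9. The median change of the members was 0.00 with the SPINK1 virus and -0.01 with the IL-6 virus. Selection for low JHOC9 NT signal favours rises in these comparisons. Whether the effect of a virus against NT differed between the lines was not tested, because the NT arrays of both lines chose the members.

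The member that fell in JHOC9 with the SPINK1 virus was TC06000909.hg.1, which gave 7.17, 6.99, 6.78, 6.71 and 6.79 with NT and 6.35, 6.46 and 6.14 with the SPINK1 virus. The groups did not overlap, and the change was -0.57 ± 0.10 (SE, 3 against 5 arrays; limma adjusted p = 0.0344). The call was lost in 11 of 16 alternative settings, with an adjusted p of up to 0.300. With a block for the replicate letter, shared by both lines, the change was -0.59 and the limma adjusted p 0.0577. In JHOC5 the same cluster went from 8.56, 8.51, 8.68, 8.65 and 8.84 with NT to 7.60, 7.69 and 7.83 with the SPINK1 virus and to 7.97, 7.95 and 8.09 with the IL-6 virus. Both JHOC5 changes passed, at -0.94 and -0.64 (limma adjusted p = 2.58e-06 and 0.00158).

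The largest fall in JHOC9 with the IL-6 virus was in TC04002368.hg.1. It gave 5.72, 5.47, 5.32, 5.51 and 5.79 with NT and 4.41, 4.61 and 4.37 with the IL-6 virus, a change of -1.10 ± 0.13 (SE, 3 against 5 arrays; limma adjusted p = 0.000299). The groups lay well apart. In JHOC5 its change with this virus was -0.43, with an adjusted p of 0.126. TC09002021.hg.1 gave 4.58, 5.11 and 4.70 with the IL-6 virus, below NT arrays of 5.21 to 5.70, a change of -0.68 ± 0.13 (SE; limma adjusted p = 0.0235). This call was lost in 7 of 16 settings, with an adjusted p of up to 0.246.

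The viruses compared with each other in JHOC9 gave 5 members that were higher with the SPINK1 virus, where 0.507% of all clusters were, and 0 that were lower by limma, where 0.122% were, with 74 members (14.8%) at an unadjusted p under 0.05, where 13.7% of all clusters were. Among clusters with a JHOC5 NT mean of at least 6, 1.42% were called higher and 4296 of 18650 had such an unadjusted p, both larger shares than among the members. TC08001926.hg.1 gave 5.86, 5.83 and 5.49 with the SPINK1 virus and 5.04, 4.75 and 4.65 with the IL-6 virus, a difference of 0.91 ± 0.14 (SE, 3 against 3 arrays; limma adjusted p = 0.00311). This call was lost in 1 of 14 settings, the compared groups alone, with an adjusted p of 0.217. TC09002021.hg.1 gave 5.69, 5.59 and 5.54 against 4.58, 5.11 and 4.70, a difference of 0.81 ± 0.14 (SE; limma adjusted p = 0.0085) that was lost in 4 of 14 settings, with an adjusted p of up to 0.217. In both, the SPINK1 arrays were within or near the range of the NT arrays and the IL-6 arrays lay below it. The count of 5 was 2 without SPINK1 replicate a, without SPINK1 replicate b or without IL-6 replicate e, and 9 without IL-6 replicate d. Virus and replicate letter are partly confounded here too, with SPINK1 replicates a, b and c against IL-6 replicates b, d and e. With a block for the replicate letter the count was 2.

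The difference between the viruses was then compared between the lines, a test chosen after seeing the data that uses none of the NT arrays. The difference, SPINK1 virus minus IL-6 virus, was more positive in JHOC5 than in JHOC9 for 19 members, where 0.465% of all clusters were, and more negative for 42, where 1.75% were (limma adjusted p under 0.05). Among clusters with a JHOC5 NT mean of at least 6 the shares were 0.767% and 5.28%. With a block for the replicate letter the members called were 4 and 25, and with the compared groups alone 13 and 30. For TC11001395.hg.1 the difference of differences was -1.84 ± 0.14 (SE; limma adjusted p = 3.96e-07), and for TC01002412.hg.1 it was -1.64 ± 0.24 (adjusted p = 0.000488). For TC12001324.hg.1 it was 1.0 ± 0.35, which did not pass (adjusted p = 0.167).

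The members were spread unevenly over the digits that follow TC in the IDs, which name the chromosome by the array maker's convention. TC01 held 77 members, TC04 46, TC08 41, and TC02, TC03 and TC06 held 37 each. Set against the number of clusters with the same digits and a JHOC5 NT mean of at least 6, the share was highest for TC18, where 25 of 239 (10.5%) were members. It was 7.32% for TC04, 6.47% for TC21 and 5.73% for TC08, against 2.68% over all digits. The share was lowest for TC22, at 0.746%, with 0.826% for TC14 and 0.845% for TC17. These shares rest on the arrays that chose the members and are a description.

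Clusters of TC18 outside the set leaned the same way on the arrays not used for selection. Among the 214 TC18 clusters with a JHOC5 NT mean of at least 6 that were not members, the median JHOC5 minus JHOC9 difference over both viruses was 0.36 log2, and 76.2% were above 0. Over all 18151 such non-members the median was -0.03 and 45.4% were above 0. TC06 had a median of 0.12, with 63.7% above 0, while TC04, TC08 and TC21 had -0.06, -0.04 and -0.09 despite their high shares of members. Under this filter the median non-member was higher in JHOC5 for TC18 and not for TC04, TC08 or TC21. The filter uses the JHOC5 NT level alone, which favours clusters high in JHOC5 under all digits. TC18 was singled out for its share of members, so these values are a description and no test was made.

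**Figure D5:**
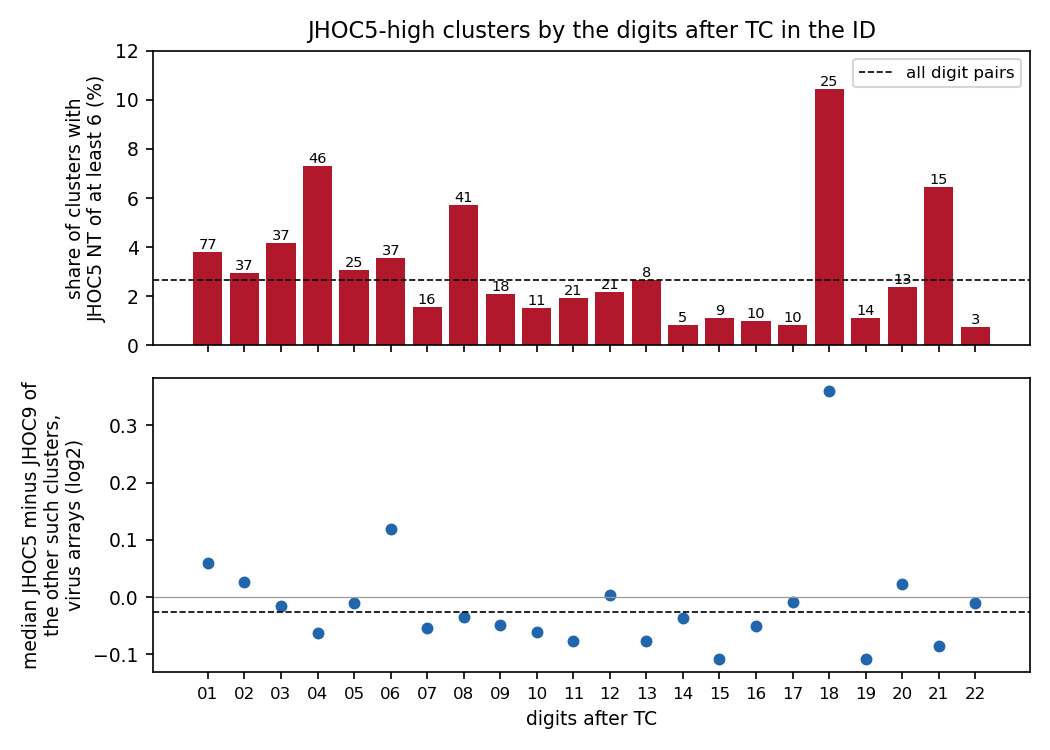
Upper panel: members as a percent of the clusters with a JHOC5 NT mean of at least 6, by the digits after TC, with the number of members above each bar and the value over all digits (2.68%) dashed. Lower panel: median JHOC5 minus JHOC9 difference (log2) on the virus arrays of the other such clusters, where TC18 stands at 0.36 and the dashed line marks the median over all digits (-0.03).

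Part of the set lay next to each other in ID number. Of the 499, 77 (15.4%) had a member with the preceding or the following number. Members are 0.762% of all clusters and 2.68% of those with a JHOC5 NT mean of at least 6. Those are shares of single clusters, while a member can have a neighbour on either side, so they are not directly comparable with the 15.4%. The 77 members made 36 runs, 4 of them of 3 or more members, and the longest had 4, from TC20000238.hg.1 to TC20000241.hg.1. Over the 41 neighbouring pairs, deviations of the arrays from their group means correlated with a median Pearson's r of 0.605 across the 22 arrays. Over all other pairs of members the median was 0.233. Neighbouring clusters may be parts of 1 transcribed region and are not independent measurements, and all pairs share the same arrays.

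The other neighbours of members were 894 clusters outside the set. They did not meet every condition of the selection, which by itself favours smaller line differences than in the members. Their median JHOC5 minus JHOC9 difference on the virus arrays was 0.01 log2, with 53.8% above 0, against -0.04 and 37.8% over all clusters. Most of these neighbours were dim. For the 253 with a JHOC5 NT mean of at least 6 the median was 0.12, against -0.03 over all such non-members.

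Some members were not separate measurements. There were 16 members in 2 sets whose log2 values were equal within 1e-05 on all 22 arrays, and counting each set once leaves 485. The larger set had 14 members under 5 chromosome digits, 6 in TC01, 4 in TC21, 2 in TC04 and 1 each in TC13 and TC18. Its signal was 8.52 ± 0.27 (SD, n = 5) in JHOC5 NT and 6.42 ± 0.27 (SD, n = 5) in JHOC9 NT. The lines differed by 2.35 on its SPINK1 arrays and by 1.80 on its IL-6 arrays. The other set was TC15000187.hg.1 and TC15001138.hg.1. Leaving out all 16, TC21 held 11 members and TC18 held 24, which is 1.03% and 2.40% of the clusters with those digits, against 1.41% and 2.5% with them.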

How the data were processed

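Per the labels, 200 ng of total RNA from each of the 22 samples was labelled for the GeneChip Human Transcriptome Array 2.0. RMA is named in the submitters' processing notes. Its software and version, the probe annotation and the build were not given in the sources used here. Deposited intensity values that chose the members range from 2.81 to 15242 and are already summarised per cluster, although their header calls them raw. The deposited log2 values of the series equal log2 of these intensities minus the cluster's median within 2.06e-06. RMA brings arrays to one distribution, which hides any overall change in RNA content. The array medians lay between 4.78 and 4.95 log2, and the number of arrays limits the precision.

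Groups came from the sample titles. A model of 6 group means over all 22 arrays was fitted to log2 intensity in limma 3.58.1 (R 4.3.3, with version 1.17.8 of data.table), with eBayes, two-sided tests and Benjamini-Hochberg adjustment over all 65526 clusters at 0.05. It has 16 residual degrees of freedom and 4.22 from the prior. A change is a difference of log2 group means with its moderated SE. The procedure was tested on simulated data. Python 3.11.15 and matplotlib 3.10.9 drew the figures.

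The members, lists and tests were chosen with earlier results of these data known. Clusters are named by rule: the 2 largest NT differences, the 2 nearest inside and outside each threshold, up to 2 rises and 2 falls of largest size per virus comparison within a line (adjusted p under 0.05, groups that do not overlap), and the 2 smallest line differences with each virus. TC15000187.hg.1, TC15001138.hg.1, TC20000238.hg.1 and TC20000241.hg.1 were named after their values were seen. Preset gene lists and marker lists needed gene names and were not analysed here.

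Deviations of same-lettered arrays correlated at 0.43, 0.32 and 0.20 for NT and SPINK1 in JHOC9, so its letters were taken as pairs, although SPINK1 replicate c correlated more with another letter (0.435). The other comparisons of a virus with NT were mixed, and their letters were not taken as pairs. For SPINK1 in JHOC5 the correlations were 0.27, 0.06 and 0.37 (letters c, d and e). For IL-6 they were 0.52, -0.002 and 0.40 in JHOC5 (a, b and c). In JHOC9 they were 0.31, -0.04 and 0.48 for IL-6 (b, d and e). These values do not exclude pairing. Counts come from the fit without a block, and the blocked value stands beside the call it changes. The block was 1 effect per letter shared by all 6 groups, not a paired fit of JHOC9 NT and SPINK1 alone. Same-lettered NT arrays of the 2 lines correlated at -0.23 to 0.14. Alternatives covered the replicate block, the compared groups alone, a filter on dim clusters, centred arrays, cyclic loess, array weights, eBayes with trend and robust, a change of at least 1.5-fold, and each array left out.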

Additional observations from a re-analysis of the deposited data

Results flagged for a closer look

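In TC12001309.hg.1, JHOC5 NT replicate b lay apart from the other NT arrays at 7.48 log2, with the others between 7.01 and 7.11. It was the only group marked by Dixon's criterion among 58 tested, for the named clusters and the median of the members on the NT arrays of each line, and chance alone marks about 1 in 20. Over all 499 members the criterion marked 18 on the JHOC5 NT arrays (3.61%) and 10 on the JHOC9 NT arrays (2.00%).

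The difference between the SPINK1 and IL-6 viruses was unequal in the lines for 61 of the 499 members by limma's interaction test. The same test called 1453 of all 65526 clusters, and 1127 of the 18650 with a JHOC5 NT mean of at least 6. With the replicate block the count of members was 29. Of the clusters named for a comparison of the viruses, TC01002412.hg.1 was among the 61, at -1.64 log2 (JHOC5 minus JHOC9), and so was TC11001395.hg.1, at -1.84. In JHOC5 the viruses differed by -2.12 and -2.09 in these clusters, and in JHOC9 by -0.48 and -0.26.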

How the results depend on the processing

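No result changed direction in any alternative run. The number of members was 276 with a difference of at least 2, 360 with a level of at least 7, and between 485 and 584 otherwise. The counts between the lines on virus arrays (488 to 496 with the SPINK1 virus, 496 to 499 with the IL-6 virus) and between the viruses in JHOC5 (102 to 194) stayed within 1.5 times the main count in all 14 alternatives each. For the SPINK1 virus against NT in JHOC5 the count of 128 was 85 with a change of at least 1.5-fold and 91 to 139 with an array left out. For the IL-6 virus against NT in JHOC5 the count of 42 was 23 with the compared groups alone, 70 with array weights and 17 to 57 with an array left out. In JHOC9 the count of 1 for the SPINK1 virus against NT was 0 with the compared groups alone, with centred arrays, after cyclic loess and with a change of at least 1.5-fold. It was 2 with dim clusters left out, 30 with array weights (13 higher and 17 lower) and 0 to 3 with an array left out. The count of 5 for the IL-6 virus against NT was 3 with the replicate block, 1 with the compared groups alone, 3 with at least 1.5-fold and 1 to 7 with an array left out. It was 2 without NT replicate a or IL-6 replicate b, 3 without NT replicate b or c and 1 without IL-6 replicate e. The count of 5 for the viruses compared in JHOC9 was 2 with the replicate block, 0 with the compared groups alone, 9 with dim clusters left out, 3 after cyclic loess, 51 with array weights (43 higher and 8 lower), 3 with at least 1.5-fold and 2 to 9 with an array left out. The count of 61 for the difference between the lines was 145 with array weights, 29 with the replicate block (4 more positive and 25 more negative) and 42 to 73 with an array left out. The cause of these shifts was not tested, except that fewer arrays in the fit leave fewer degrees of freedom. The replicate block moved no other count of calls by over 1.5 times. No detection call was used, so how far background adds to the dimmest JHOC9 signals was not tested.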
